A study of Rattus norvegicus with 10 samples.

Results

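RNA splicing, RNA processing and transcription machinery genes were examined in the lens capsules of cold-treated and untreated rats. They were chosen by name alone: genes whose symbol began with the letters of the Sm and LSm proteins (Snrp, Lsm), of U2, tri-snRNP and SR splicing factors (Sf3, U2af, Prpf, Sart, Luc7, Srsf), of hnRNP, RBM, CIRBP, CELF and QKI RNA-binding proteins, of DEAD-box and DEAH-box proteins (Ddx, Dhx), of 3′ end factors (Cpsf, Cstf), of exosome subunits (Exosc) or of RNA polymerase subunits (Polr1, Polr2, Polr3). This gave 33 of the 3334 genes in the deposited table, and 32 of them had enough counts to be tested. The Hypothermia Group held 5 male Sprague-Dawley rats aged 6 weeks, whose isolated lenses had been kept at 4°C for 8 h in Hibernate-A medium, and the Normal Group held 5 such rats whose capsules were taken straight after death. Both capsules of a rat made 1 sample, and they carried the epithelial cells of the lens. The untreated capsules were neither incubated nor kept in medium, so the effects of cold, of isolation and of time outside the body cannot be told apart. The authors' table listed genes that already differed between the groups, so neither a call nor a direction here is independent of that choice.

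As background, most mRNAs are cut from a longer transcript by the spliceosome, whose small nuclear ribonucleoproteins are built on a ring of Sm proteins. A related LSm ring holds U6 RNA in the nucleus, and another starts mRNA decapping in the cytoplasm. Proteins of the RBM, hnRNP and CELF families bind the transcript and set which exons are kept or how long the mRNA lasts. CPSF and CstF cut the transcript before the poly(A) tail is added, and the exosome degrades RNA from its 3′ end. In the lens, fibre cells lose their nuclei as they mature and depend on mRNA made earlier, and cold is known in many cells to raise the RNA-binding proteins Cirbp and Rbm3.

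Values below are normalized counts, that is read counts divided by the authors' size factor of the rat, and fold changes are edgeR estimates on the log2 scale, Hypothermia over Normal, ± SE. A gene was called up-regulated or down-regulated at an adjusted p under 0.05. The scaling sets the zero of every fold change: under TMM computed on the listed genes all log2 fold changes moved by a median of -0.29, so small positive values can change sign. The authors' size factors lay between 0.744 and 0.980 in the Hypothermia rats and between 1.081 and 1.257 in the Normal rats. Groups that do not overlap in normalized counts can therefore overlap in unscaled counts, as for Cpsf4 (598 to 722 in the Hypothermia rats, 557 to 702 in the Normal rats). Between 9026144 and 12415121 counts of listed genes were available per Hypothermia rat and between 4792595 and 8177803 per Normal rat. The share of those counts that fell in the 33 genes was 0.164% to 0.266% per Hypothermia rat and 0.319% to 0.588% per Normal rat, while the genes' normalized counts summed to between 25089 and 29025 and between 22133 and 24555. Counts of 8 listed lens fibre markers differed far more: their summed FPKM (here the authors' size-factor-scaled counts per gene length, so they share the scaling of the normalized counts) lay between 130118 and 296257 in the Hypothermia rats and between 16508 and 91957.9 in the Normal rats. Of 6 epithelial markers, 2 were listed, and Pax6 had a log2 fold change of -0.26 (adjusted p = 0.0498) and Gja1 one of -0.43 (adjusted p = 0.0567). None of 8 blood and immune markers was listed. Markers of other nearby tissues had low sums. The 3 listed of 8 photoreceptor and neuron markers summed to an FPKM of 0 to 0.412 in the Hypothermia rats and 0.669 to 2.003 in the Normal rats, with Calb2 down-regulated (log2 fold change -5.08, adjusted p = 0.0046). The 4 listed of 7 pigment cell markers summed to 3.65 to 5.18 against 6.36 to 9.46, with Pmel down-regulated (-1.77, adjusted p = 0.0171), and neither sum overlapped between the groups. Col1a1, the fibroblast marker listed of 7, had 0.142 to 0.659 against 0.363 to 5.51 (-2.63, adjusted p = 0.0657). The part of these tissues in the results below was not tested. In bulk samples, a changed number of cells of a type and a changed RNA level per cell cannot be told apart.

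Of the 32 tested genes, 17 were up-regulated, 5 were down-regulated and 10 were not called, which made 68.8% called, against 72.9% of all 3222 tested genes of the table. A positive log2 fold change was found for 24 of them, and for 63.7% of the table. The up-regulated share was 53.1% (52.3% over the table) and the down-regulated share 15.6% (20.5% over the table). The groups did not overlap for 20 of the 32 genes, or 62.5%, against 58.5% over the table, and lay higher in the cold for 15 of them (41.9% over the table) and lower for 5 (16.7% over the table). The median log2 fold change was 0.35, and 0.36 over the table. These shares were near the background, which is no result about the genes as a group. Under TMM 4 of the 32 were up-regulated and 8 down-regulated, as were 639 and 1100 of the 3220 genes tested there. Only Rbm24 and Rbm38 were called with a log2 fold change above 1 in either direction, as were 392 genes, or 12.2%, of the table. The plot of each rat shows the separation gene by gene.

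**Figure D1:**
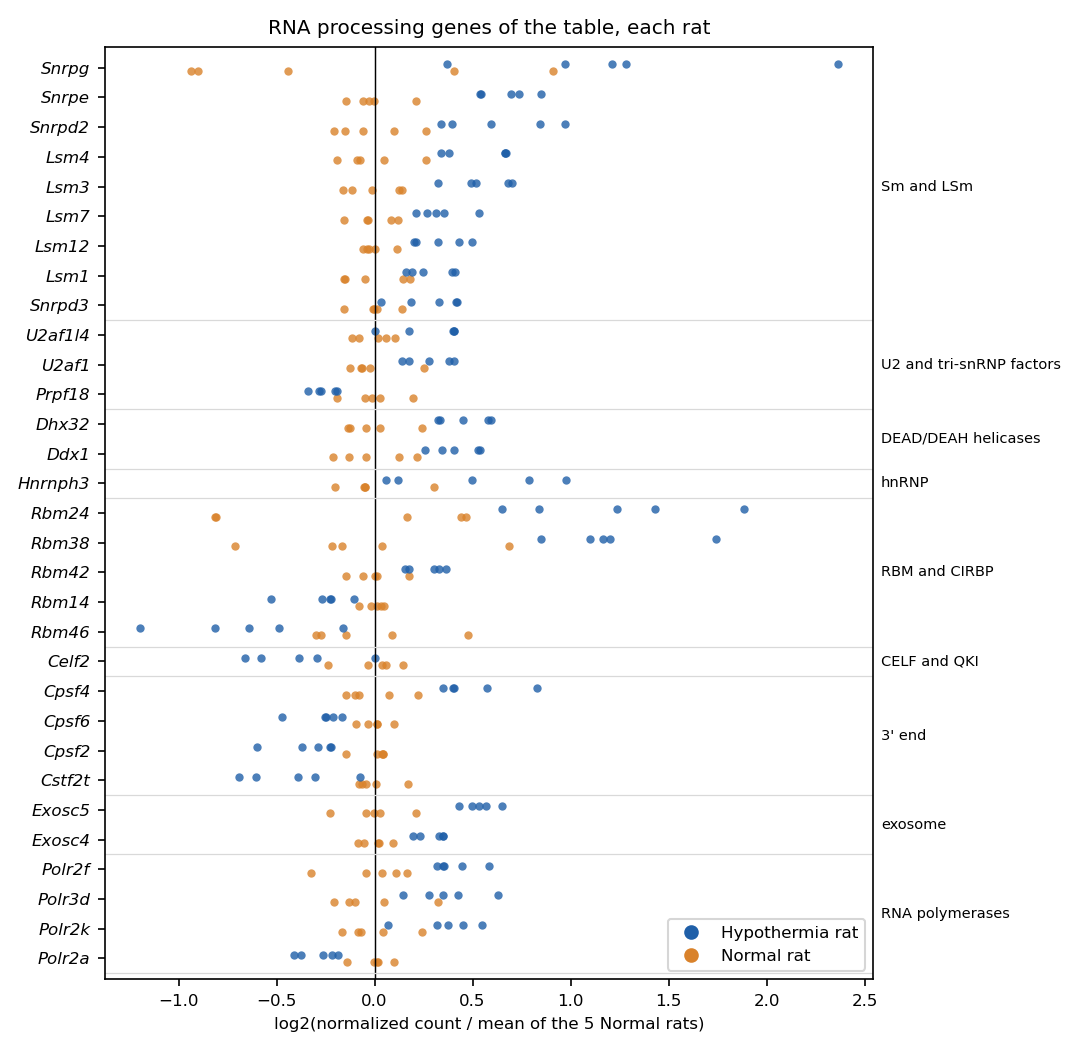
Normalized count of 31 of the tested genes in every rat, as log2 of its ratio to the mean of the 5 Normal rats. Each blue point is a Hypothermia rat and each orange point a Normal rat, and genes are grouped by role. The Sm and LSm genes lie to the right, the largest shifts are those of Snrpg, Rbm24 and Rbm38, and Cpsf2, Cpsf6 and Polr2a lie to the left.

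Promoters of 5 genes are shown because these genes had the largest fold changes among the called genes (Rbm24, Rbm38), stand for the splicing core (Snrpd2) or carry the decreases described below (Polr2a, Cpsf2). They come from RefSeq on the GRCr8 build and hold 250 bases before and 50 bases after the annotated start. Each is written 5′ to 3′ along the gene, and capitals mark matches to any of the 10 motifs searched on both strands.
Rbm24 (chr17:18493579-18493878, minus strand): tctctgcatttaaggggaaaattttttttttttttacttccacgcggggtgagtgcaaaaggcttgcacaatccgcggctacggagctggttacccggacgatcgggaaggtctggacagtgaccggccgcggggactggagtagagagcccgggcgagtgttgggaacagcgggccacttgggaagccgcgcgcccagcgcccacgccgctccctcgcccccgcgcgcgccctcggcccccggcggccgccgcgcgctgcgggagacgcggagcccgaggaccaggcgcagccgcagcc
Rbm38 (chr3:182219669-182219968, plus strand): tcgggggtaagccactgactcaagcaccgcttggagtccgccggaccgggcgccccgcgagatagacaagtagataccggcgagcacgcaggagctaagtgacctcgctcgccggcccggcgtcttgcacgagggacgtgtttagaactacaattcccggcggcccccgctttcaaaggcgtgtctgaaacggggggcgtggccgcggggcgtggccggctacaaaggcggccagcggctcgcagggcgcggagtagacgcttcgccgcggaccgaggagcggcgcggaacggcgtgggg
Snrpd2 (chr1:87926159-87926458, plus strand): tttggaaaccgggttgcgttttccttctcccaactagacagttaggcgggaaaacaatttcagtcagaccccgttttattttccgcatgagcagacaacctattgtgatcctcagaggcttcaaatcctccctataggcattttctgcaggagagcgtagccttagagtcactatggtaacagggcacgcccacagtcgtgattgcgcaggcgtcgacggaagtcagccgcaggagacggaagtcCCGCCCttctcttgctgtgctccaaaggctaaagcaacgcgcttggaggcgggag
Polr2a (chr10:54977130-54977429, minus strand): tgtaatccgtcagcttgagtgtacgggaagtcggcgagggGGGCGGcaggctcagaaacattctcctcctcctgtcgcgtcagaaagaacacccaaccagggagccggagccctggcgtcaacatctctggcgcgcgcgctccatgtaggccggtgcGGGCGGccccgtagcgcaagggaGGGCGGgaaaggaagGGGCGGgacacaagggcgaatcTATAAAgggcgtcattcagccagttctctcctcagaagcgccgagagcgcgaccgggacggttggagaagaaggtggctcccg
Cpsf2 (chr6:126888872-126889171, plus strand): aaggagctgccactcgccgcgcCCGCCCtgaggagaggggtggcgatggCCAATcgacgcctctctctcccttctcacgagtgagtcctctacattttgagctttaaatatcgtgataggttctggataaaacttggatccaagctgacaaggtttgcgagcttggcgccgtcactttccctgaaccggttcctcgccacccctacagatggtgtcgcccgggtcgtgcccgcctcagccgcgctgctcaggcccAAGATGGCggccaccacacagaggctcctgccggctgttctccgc

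The motifs were the TATA box TATAAA, the CCAAT box CCAAT, the GC box GGGCGG, the ETS core CCGGAAG, the E-box CACGTG, the mild-cold octamer TCCCCGCC known from the Cirbp promoter, the heat shock factor arrangements GAANNTTC and TTCNNGAA, the YY1 core AAGATGGC and the MAF core TGCTGA. No motif stood in the Rbm24 or Rbm38 window. Snrpd2 had 1 GC box, Cpsf2 a CCAAT box, a GC box and a YY1 core, and Polr2a 4 GC boxes with a TATA box starting at base -33. A promoter of the same symbol existed for 25 of the 33 genes, and 23 on the same chromosome were searched. GC boxes stood in 60.9% of these, 64.2% of 2323 listed genes and 33.1% of all 33469 promoters of that length. The TATA box stood in 4.35%, 6.93% and 14.2%, in that order, and Polr2a was the only carrier among the 23. The CCAAT box stood in 47.8%, 37.5% and 37.5%, and the ETS core in 17.4%, 18.0% and 8.75%. The mild-cold octamer stood in the promoters of Cpsf6, Ddx1, U2af1 and U2af1l4, or 17.4%, against 9.99% and 4.79%. The YY1 core stood in those of Cpsf2, Cpsf6, Ddx1 and Lsm7, also 17.4%, against 6.28% and 3.17%. E-boxes stood in 3 of the 23, 9.56% and 6.42%, and the MAF core in 8.7%, 15.4% and 18.4%. Neither heat shock factor arrangement was in the 23 windows, and the shares elsewhere were, for GAANNTTC, 5.08% of listed genes and 8.59% of all promoters, for TTCNNGAA 6.54% and 8.77%. The median GC content was 61.3%, close to the 61% of the listed genes, and 51.7% over all promoters. A match says only that these letters are in the window.

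Rbm24 and Rbm38 are close relatives with an RNA recognition motif. Rbm24 is known in lens and muscle for controlling splicing and stability of mRNA, and Rbm38 binds and stabilises mRNAs as a p53 target. Rbm24 stood at 2146, 1249, 2949, 1427 and 1881 normalized counts in Hypothermia rats 1 to 5. It stood at 1101, 1081, 453.5, 455.0 and 894.3 in Normal rats 1 to 5. All 5 cold-treated rats were above all 5 untreated rats, by little at the edge, and the spread within each group was wide. Its log2 fold change was 1.28 ± 0.32 (edgeR, adjusted p = 0.0254), a 2.42-fold difference. The call was lost without Hypothermia rat 1 (adjusted p = 0.0548), Hypothermia rat 3 (0.0650), Normal rat 4 (0.0559) or Normal rat 5 (0.0509). Rbm38 stood at 412.4, 393.1, 423.0, 330.7 and 615.3 in the Hypothermia rats and at 296.0, 163.6, 112.2, 158.3 and 188.6 in the Normal rats. The groups did not overlap, with Hypothermia rat 5 far above the others and Normal rat 1 nearest to the cold-treated rats. Its log2 fold change was 1.24 ± 0.24 (edgeR, adjusted p = 0.00919), and the call held whichever rat was left out. Both genes stayed up-regulated under TMM, at 0.99 (adjusted p = 0.0420) and 0.96 (adjusted p = 0.0112). Under upper-quartile factors Rbm24 lost its call (0.96, adjusted p = 0.0508) and Rbm38 kept it (0.93, adjusted p = 0.0127). With listed-gene totals neither was called (0.088 and 0.058).

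The fibre marker sum was higher in the cold, as both genes were, and its order within a group was theirs only in part. In the Normal rats its order from high to low was rat 1 (91957.9), rat 2 (51707.3), rat 5 (47100), rat 4 (30264.5) and rat 3 (16508), and Rbm24 had that order too, though rats 3 and 4 were nearly level. The marker sum and Rbm24 share the size factor of each rat. In unscaled counts Rbm24 was higher in Normal rat 2 (1322) than in Normal rat 1 (1190). In the Hypothermia rats the order of the marker sum was rat 5 (296257), rat 3 (238722), rat 1 (166520), rat 4 (160578) and rat 2 (130118). There Rbm24 was higher in rats 3 and 1 than in rat 5, and it was lowest in rat 2. Rbm38 was highest in Hypothermia rat 5, where the sum was highest, but lowest in rat 4. Among the Normal rats Rbm38 was highest in rat 1 and lowest in rat 3, as the sum was, with rat 5 above rat 2. All 8 listed fibre markers were up-regulated (52.3% of the table), with a median log2 fold change of 2.12, above those of Rbm24 and Rbm38. The part of fibre cell RNA in the rise of these 2 genes was not tested.

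**Figure D2:**
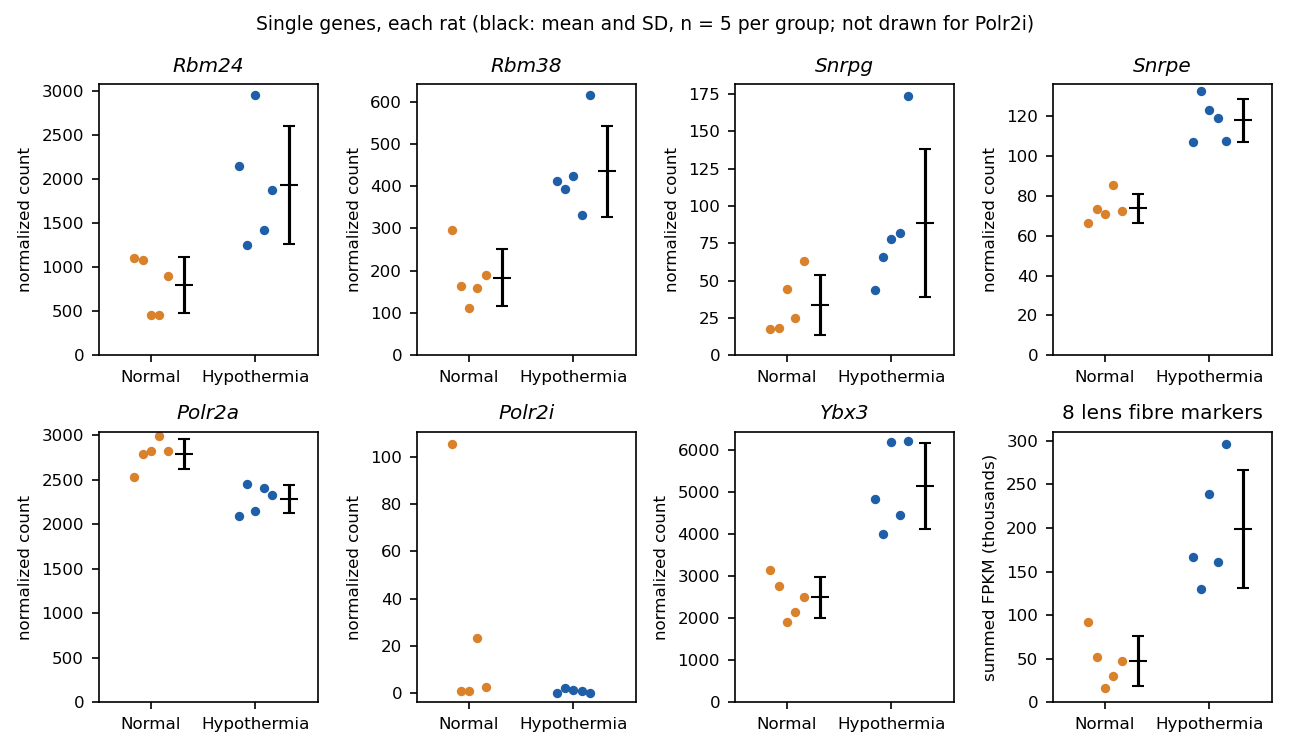
Normalized counts of 6 of the genes and of Ybx3, and the summed FPKM of 8 lens fibre markers, for each rat. Points are rats, with Normal on the left, and black marks give the mean and SD of 5 rats, left out for Polr2i. Rbm24, Rbm38, Snrpe and Ybx3 separate the groups upward and Polr2a downward, while Snrpg overlaps and Polr2i rests on 2 Normal rats.

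The other 3 RBM genes had smaller fold changes, of both signs. Rbm42, an RRM protein that binds hnRNP K, had 690.0 to 796.7 normalized counts (median 762.1) in the Hypothermia rats and 558.4 to 699.4 (median 618.8) in the Normal rats. These ranges overlapped, the log2 fold change was 0.27 ± 0.078 (edgeR, adjusted p = 0.0405), and under TMM the sign turned (-0.019). The call of Rbm42 held only without Hypothermia rat 4 or Normal rat 2 (adjusted p without another rat up to 0.107). Rbm14, a transcriptional coactivator found in paraspeckles, had 463.5 to 622.6 (median 571.2) against 632.5 to 692.2 (median 673.4). It was down-regulated with no overlap (log2 fold change -0.26 ± 0.080, adjusted p = 0.0487), a call that held only without Hypothermia rat 4 (adjusted p without another rat up to 0.114). Rbm46, known from germ cells, was low, at 44.34 to 90.95 against 82.62 to 141.6, and its log2 fold change of -0.62 ± 0.22 did not pass (adjusted p = 0.0993), but under TMM Rbm46 was down-regulated (-0.89, adjusted p = 0.0394). The median log2 fold change of the 5 RBM genes was 0.27 (-0.019 under TMM).

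The cold-inducible genes Cirbp and Rbm3 had no row in the table and were not analysed here. Cold-shock-domain proteins, which bind mRNA through a fold shared with bacterial cold shock proteins, were listed in part: of 10 cold-inducible and cold-shock-domain genes, Ybx1, Ybx3 and Carhsp1 were in the table. All 3 were up-regulated (52.3% of the table) with no overlap between the groups (41.9% of the table lay higher without overlap). Ybx3, a repressor of translation and transcription, stood at 4844, 4011, 6199, 4449 and 6222 normalized counts in Hypothermia rats 1 to 5. In Normal rats 1 to 5 it stood at 3138, 2775, 1917, 2158 and 2518. The lowest cold-treated rat was thus well above the highest untreated rat, and the log2 fold change was 1.04 ± 0.16 (edgeR, adjusted p = 0.00491). The rats stood in the order of the fibre marker sum in both groups, but both quantities share the size factor of each rat. The part of fibre RNA was not tested. Ybx1, which packs mRNA into particles, had a log2 fold change of 0.70 ± 0.14 (adjusted p = 0.00985), and Carhsp1, which binds and stabilises mRNA, one of 0.52 ± 0.13 (adjusted p = 0.0195). Under TMM Ybx3 (0.75, adjusted p = 0.00337) and Ybx1 (0.40, adjusted p = 0.0189) were still called and Carhsp1 (0.23, adjusted p = 0.182) was not. With listed-gene totals all 3 were negative (-0.19, -0.55 and -0.71).

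All 9 tested Sm and LSm genes had positive log2 fold changes, as had 63.7% of the table and 1380 of its 1611 genes no longer than the median length. Of the 9, 6 were up-regulated (66.7%, against 52.3% of the table and 71.5% of its genes no longer than the median length). The median log2 fold change of the 9 was 0.55, and 0.26 under TMM, where Snrpd3 turned to -0.0064. Among the Sm genes, Snrpd2 stood at 1190, 1145, 1776, 1365 and 1627 normalized counts in Hypothermia rats 1 to 5. It stood at 969.4, 1085, 868.8, 785.3 and 816.5 in Normal rats 1 to 5. The groups did not overlap, but Hypothermia rat 2 and Normal rat 2 were close. Its log2 fold change was 0.65 ± 0.14 (edgeR, adjusted p = 0.0104), and the call held without any 1 rat and under TMM (0.36, adjusted p = 0.0487). The call of Snrpd2 was lost under median-of-ratios (0.33, adjusted p = 0.0622) and upper-quartile factors (0.32, adjusted p = 0.0858). With listed-gene totals Snrpd2 was negative (-0.61, adjusted p = 0.0234). Snrpd3, another Sm ring protein, had 834.2 to 1091 against 732.5 to 899.1, which overlapped, and its log2 fold change of 0.28 ± 0.091 did not pass (adjusted p = 0.0618). Snrpd2 was among the most abundant of the genes per length, at an FPKM of 91.9 ± 17.8 against 58.5 ± 7.92 (SD, n = 5), and Rbm46 among the least, at 2.22 ± 0.58 against 3.42 ± 0.82.

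Rows named Snrpe and Snrpg, after 2 other Sm ring proteins, need care. The row Snrpe lies at chr8:129371556-129371973 and the row Snrpg at chr1:91588228-91588609 on Rnor_6.0, both on the minus strand. Their spans of 418 and 382 bases equal the gene length in the table, so both are 1 block with no intron. RefSeq puts the genes of these symbols on other chromosomes and lists Snrpel1, with Snrpe as a synonym, and Snrpgl1 on the chromosomes of the rows. How far reads were shared with other copies was not tested. The row Snrpe stood at 107.3, 132.8, 123.02, 119.4 and 107.5 in Hypothermia rats 1 to 5 and at 66.60, 73.63, 70.81, 85.57 and 72.31 in Normal rats 1 to 5. These groups were well apart, with a log2 fold change of 0.68 ± 0.14 (edgeR, adjusted p = 0.00949). The call of Snrpe held without any 1 rat but not under TMM (0.39, adjusted p = 0.211). The row Snrpg stood at 43.41, 65.86, 77.83, 81.65 and 173.3 against 17.57, 18.00, 44.56, 24.79 and 63.16. Normal rats 3 and 5 were above Hypothermia rat 1, and Hypothermia rat 5 stood alone at the top. The log2 fold change of Snrpg, 1.39 ± 0.44, was thus the highest among the genes but did not pass (adjusted p = 0.0589).

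Among the 5 LSm genes, Lsm3, Lsm4, Lsm7 and Lsm12 were up-regulated without overlap, while 52.3% of the table was up-regulated and 41.9% lay higher without overlap. Lsm3, Lsm4 and Lsm7 belong to both LSm rings. Lsm3 had 283.3 to 367.4 normalized counts (median 323.8) in the Hypothermia rats and 202.3 to 249.5 (median 223.8) in the Normal rats, a log2 fold change of 0.55 ± 0.099 (adjusted p = 0.00625). Lsm4 had 934.5 to 1175 (median 1169) against 646.2 to 886.0 (median 700.2), at 0.55 ± 0.11 (adjusted p = 0.00773). Lsm7 had 259.3 to 323.9 (median 278.1) against 200.7 to 243.3 (median 218.8), at 0.34 ± 0.090 (adjusted p = 0.0268). Both groups of Lsm7 thus nearly met, and its call was lost without Hypothermia rat 3 or 4 or without Normal rat 3, 4 or 5 (adjusted p up to 0.0736). Lsm12, an LSm protein outside the rings, had 1009 to 1237 (median 1100) against 842.9 to 950.9 (median 860.9), at 0.34 ± 0.079 (adjusted p = 0.0162). Lsm1, the subunit that marks the cytoplasmic decapping ring, had 251.2 to 298.8 against 201.3 to 254.4, which overlapped. Its log2 fold change of 0.29 ± 0.098 did not pass (adjusted p = 0.0809) and was 0.0016 under TMM. Under TMM the log2 fold changes of Lsm7 and Lsm12 were 0.053 and 0.047, and no LSm gene was called.

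With the authors' size factors, edgeR called none of the 3 listed U2af and Prpf genes (U2af1, U2af1l4 and Prpf18), against 72.9% of the table. All 3 had an unadjusted p under 0.05, as had 3221 of the 3222 tested genes. DESeq2 called U2af1 (adjusted p = 0.0282) and Prpf18 (adjusted p = 0.0236) but not U2af1l4 (adjusted p = 0.0578), against 88.1% of the table. U2af1, the small subunit that reads the 3′ splice site, had 1189 to 1426 normalized counts (median 1307) against 987.7 to 1281 (median 1030), and only Normal rat 2 reached into the cold-treated range. The log2 fold change was 0.28 ± 0.091 (edgeR, adjusted p = 0.0629). U2af1l4, its shorter relative, had 296.6 to 392.9 against 273.7 to 318.2, at 0.29 ± 0.095 (adjusted p = 0.0692). Under TMM both were at or below 0 (-0.0070 and -0.00094). Prpf18, which acts late in the catalytic stage of splicing, had 749.4 to 828.9 against 829.8 to 1085. Its groups met without overlapping, and the log2 fold change was -0.26 ± 0.080 (adjusted p = 0.0534). Under TMM Prpf18 was down-regulated (-0.54, adjusted p = 0.00409). The table held no Sf3, Sart, Luc7 or Srsf row, so SF3 subunits and SR proteins were not analysed here. Hnrnph3 was the hnRNP gene listed, with 193.9 to 366.5 against 161.9 to 229.9, and its log2 fold change of 0.53 ± 0.18 did not pass (adjusted p = 0.0718). Celf2, a regulator of alternative splicing, had 539.8 to 854.1 against 724.0 to 942.1, at -0.36 ± 0.12 (adjusted p = 0.0746), and was down-regulated under TMM (-0.65, adjusted p = 0.0170).

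Both RNA helicase genes listed were up-regulated, as was 52.3% of the table. Ddx1, a DEAD-box protein of the tRNA ligase complex, stood at 1704, 1606, 1949, 1776 and 1935 normalized counts in Hypothermia rats 1 to 5. It stood at 1563, 1464, 1225, 1161 and 1303 in Normal rats 1 to 5. Normal rat 1 came close to Hypothermia rat 2 and the groups did not overlap, with a log2 fold change of 0.42 ± 0.098 (edgeR, adjusted p = 0.0162). Dhx32, a DEAH-box protein, had 2092 to 2526 (median 2289) against 1522 to 1980 (median 1623), at 0.46 ± 0.095 (adjusted p = 0.00975). Dhx32 overlaps the listed gene Bccip on the opposite strand, and the strand setting of the counting is not given in the sources used here. Under TMM both stayed positive (0.13 and 0.17) and neither was called.

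Genes of 3′ end cleavage split in 2 directions. Cpsf4, the subunit that binds the poly(A) signal, stood at 721.0, 695.2, 812.2, 722.6 and 970.0 normalized counts in Hypothermia rats 1 to 5. In Normal rats 1 to 5 it stood at 637.3, 574.3, 516.4, 494.2 and 509.9. It was up-regulated without overlap, with a log2 fold change of 0.52 ± 0.11 (edgeR, adjusted p = 0.00975) that kept its call without any 1 rat. Cpsf2, the scaffold partner of the cleaving subunit, stood at 864.5, 955.5, 915.1, 957.4 and 737.6 against 1152, 1125, 1147, 1151 and 1010. It was down-regulated without overlap, at -0.33 ± 0.085 (adjusted p = 0.0240), and lost the call without Hypothermia rat 1 (0.0554), Normal rat 3 (0.0550) or Normal rat 4 (0.0601). Cpsf6, a subunit of cleavage factor I that steers the choice of site, had 1905 to 2358 (median 2227) against 2480 to 2834 (median 2665), at -0.27 ± 0.079 (adjusted p = 0.0430). Cstf2t, an intronless relative of the CstF subunit Cstf2, had 585.0 to 896.1 (median 718.8) against 892.6 to 1062 (median 914.1), and Hypothermia rat 4 reached just into the untreated range. This gave a log2 fold change of -0.39 ± 0.11 (adjusted p = 0.0378). Cpsf6 kept its call only without Hypothermia rat 2 or Normal rat 1, and Cstf2t only without Hypothermia rat 2 or 4 or Normal rat 1 (adjusted p without another rat up to 0.103 and 0.0932). Every other scaling tried moved fold changes down, so the negative signs of Cpsf6, Cstf2t and Cpsf2 could not turn under them. Cpsf4 lost its call under TMM (0.23, adjusted p = 0.108) and turned negative when listed-gene totals were used (-0.72).

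Both exosome subunits listed, which belong to its catalytically inactive ring, were up-regulated (52.3% of the table). Exosc5 stood at 614.9, 586.5, 646.5, 628.7 and 682.5 normalized counts in Hypothermia rats 1 to 5. It stood at 443.1, 503.1, 371.6, 435.0 and 422.9 in Normal rats 1 to 5. The groups were well apart, with a log2 fold change of 0.54 ± 0.085 (edgeR, adjusted p = 0.00505) that was called under TMM as well (0.25, adjusted p = 0.0465). Exosc5 was not called under median-of-ratios (0.23, adjusted p = 0.0843) or upper-quartile factors (0.22, adjusted p = 0.0836). With listed-gene totals it was negative (-0.69, adjusted p = 0.0178). Exosc4 had 421.3 to 469.5 (median 461.8) against 346.9 to 392.7 (median 372.8), at 0.29 ± 0.068 (adjusted p = 0.0157), and was level under TMM (0.0061). Both calls held without any 1 rat under the authors' size factors. Median-of-ratios factors turned Exosc4 to -0.018.

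RNA polymerase II and III genes also split. Polr2a, the catalytic subunit of polymerase II, stood at 2098, 2454, 2154, 2405 and 2328 normalized counts in Hypothermia rats 1 to 5. It stood at 2531, 2788, 2824, 2994 and 2818 in Normal rats 1 to 5. Every cold-treated rat was below every untreated rat, though Hypothermia rat 2 and Normal rat 1 were close. Its log2 fold change was -0.29 ± 0.078 (edgeR, adjusted p = 0.0307). The other scalings moved fold changes down, so the sign of Polr2a could not turn under them. Its call held without Hypothermia rat 2 or 4 or Normal rat 1 but was lost without any of the other 7 rats (adjusted p up to 0.0843). Polr2f, a small subunit shared by polymerases I, II and III, had 385.8 to 463.2 (median 395.5) against 247.1 to 346.9 (median 316.7), at 0.41 ± 0.099 (adjusted p = 0.0178). Polr2k, also shared by them, had 227.9 to 318.4 against 194.1 to 256.9, which overlapped, at 0.36 ± 0.11 (adjusted p = 0.0491), and kept the call only without Hypothermia rat 2 or Normal rat 2 (adjusted p without another rat up to 0.130). Under TMM neither Polr2f (0.13) nor Polr2k (0.074) was called, both with an adjusted p of 1. Polr3d, a polymerase III subunit, had 502.8 to 703.0 against 393.5 to 567.9, at 0.37 ± 0.12, and did not pass (adjusted p = 0.0534). No Polr1 gene was listed.

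Polr2i, a small subunit of polymerase II, was the gene left untested for low counts. It stood at 105.4 in Normal rat 1 and 23.19 in Normal rat 4. The other 8 rats had at most 2.75. The group means of 0.873 and 26.6 therefore rest on 2 rats and do not describe the Normal Group. Without the filter on low counts edgeR gave an adjusted p of 0.0725 and DESeq2 one of 0.00477.

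**Figure D3:**
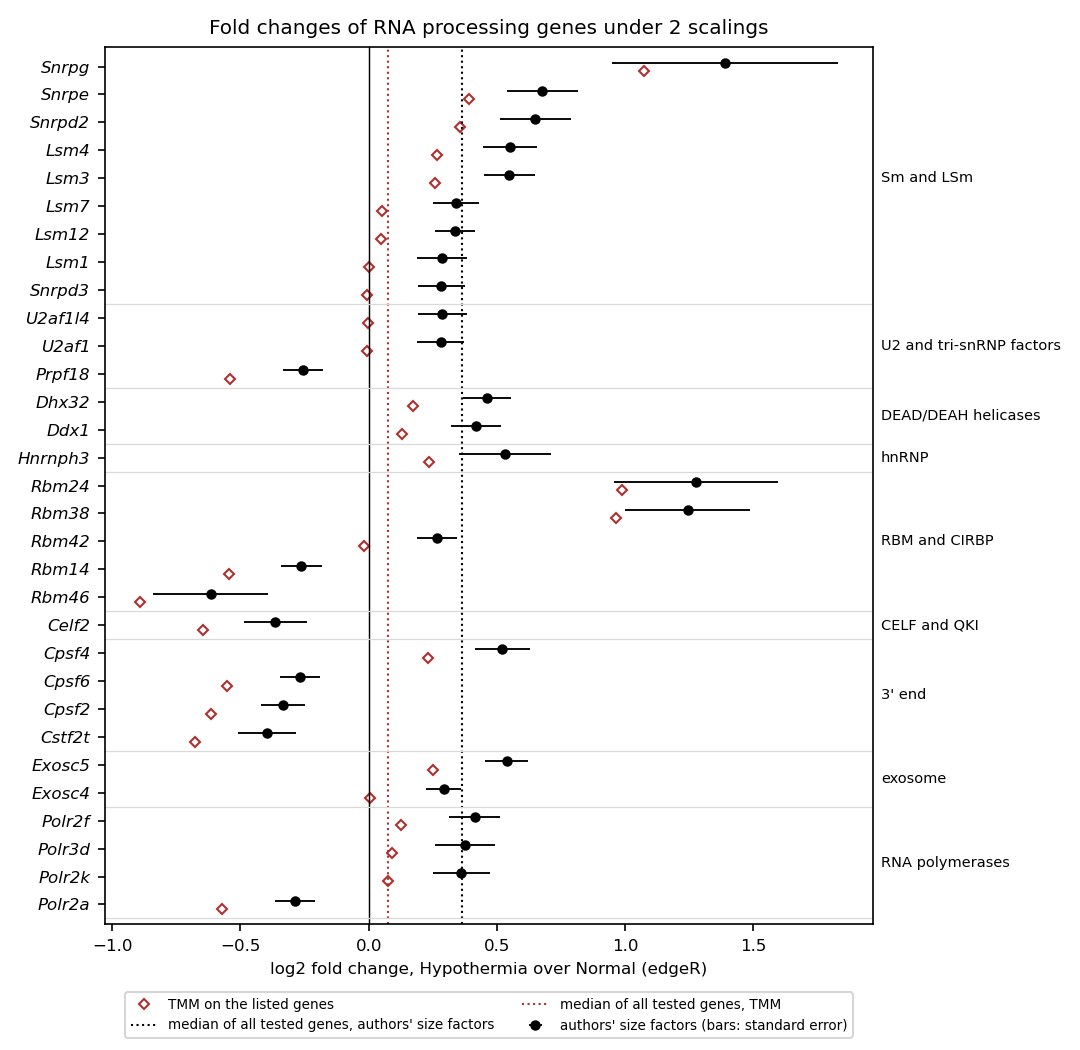
Log2 fold change, Hypothermia over Normal, of 31 of the tested genes with the authors' size factors (black, bars are SE) and with TMM on the listed genes (red diamonds). Dotted lines mark the medians of all tested genes, 0.36 and 0.07. Rbm24, Rbm38 and Snrpg stay far to the right under both, while U2af1, U2af1l4, Snrpd3 and Rbm42 cross to just under 0 with TMM.

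Fold change ran with gene length. Over the 32 genes the log2 fold change had a Spearman correlation of -0.50 and a Pearson correlation of -0.54 with the logarithm of length, and -0.43 and -0.38 over all 3222 tested genes. All rats' libraries enter each point, and the genes share them, so these are descriptions across genes. Without the 3 intronless rows (Snrpg, Snrpe, Cstf2t) the values over 29 genes were -0.36 and -0.42. Of the 21 genes no longer than the median of tested genes, 2191.5 bases, 13 were up-regulated and none down-regulated, with 2 negative values (Celf2 and Rbm46). Of the 11 longer genes, 4 were up-regulated and 5 down-regulated. Over the table the shares up-regulated were 71.5% of the shorter and 33.1% of the longer genes, and those down-regulated 6.52% and 34.6%. The down-regulated Cpsf2, Cpsf6, Cstf2t, Polr2a and Rbm14 were all in the longer class (3347 to 7168 bases). The part of length in any of the changes above was not tested.

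**Figure D4:**
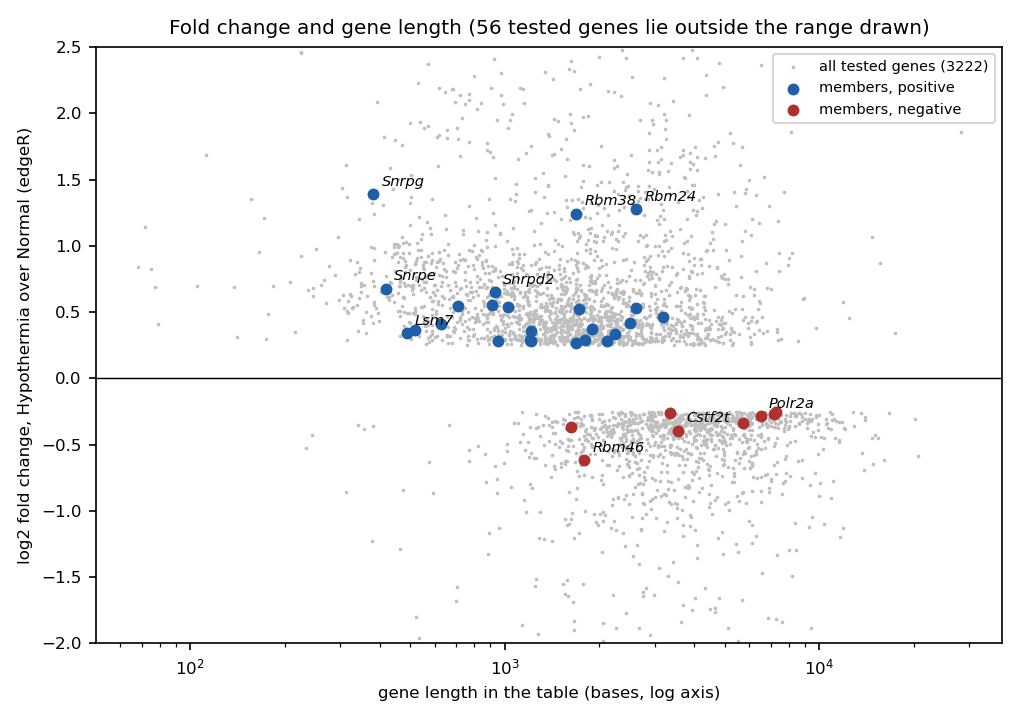
Log2 fold change against gene length (log axis) for the 32 genes (blue positive, red negative) over all 3222 tested genes (grey). 56 tested genes lie outside the vertical range. Short Sm and LSm genes lie above 0 and long genes such as Polr2a below it, as in the table at large, and the empty band around 0 is the authors' selection.

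The wider pathway was read from lists of 259 other genes, of which 45 were in the table, and 35 (77.8%, against 72.9% over the table) were called. Of these genes 21 were up-regulated and 14 down-regulated, and under TMM 6 (Ybx1, Ybx3, Thoc7, Pabpc1, Pabpc4 and Dis3l) and 19. Of all tested genes, 52.3% were up-regulated and 20.5% down-regulated, and for genes no longer than the median these shares were 71.5% and 6.52%. Of 9 other spliceosome genes, with a median length of 1311 bases, 6 (66.7%) were up-regulated and none down-regulated. Among them Puf60, which helps U2AF bind, had a log2 fold change of 0.45 ± 0.077 (edgeR, adjusted p = 0.00573) and Bcas2, of the PRP19 complex, one of 0.56 ± 0.12 (adjusted p = 0.0106). Clk1, a kinase of SR proteins, was the SR-related gene listed and was down-regulated (-0.35 ± 0.071, adjusted p = 0.00951). It stood at 2859 to 3191 normalized counts in the Hypothermia rats and at 3731 to 4022 in the Normal rats, well apart. Splicing regulators were split, with Pcbp4 (0.59 ± 0.13, adjusted p = 0.0146) and Ptbp2 (0.27 ± 0.080, adjusted p = 0.0432) up-regulated and Sfpq (-0.39 ± 0.087, adjusted p = 0.0142) and Ptbp3 (-0.37 ± 0.096, adjusted p = 0.0251) down-regulated among 6 listed. Exon junction and export genes were split too: Thoc7 (0.61 ± 0.11, adjusted p = 0.00640) and Thoc5 (0.54 ± 0.11, adjusted p = 0.0102) of the THO complex were up-regulated and their partner Thoc2 was down-regulated (-0.29 ± 0.065, adjusted p = 0.0135).

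All 5 listed cleavage and polyadenylation genes were called (72.9% of the table), 3 up-regulated (52.3% of the table) and 2 down-regulated (20.5% of the table). The poly(A)-binding proteins Pabpc1 (0.86 ± 0.17, adjusted p = 0.00915) and Pabpc4 (0.65 ± 0.094, adjusted p = 0.00459) were up-regulated with Ssu72, while the termination factor Pcf11 (-0.29 ± 0.066, adjusted p = 0.0151) and Rbbp6 (-0.32 ± 0.067, adjusted p = 0.0103) were down-regulated. Pabpc1 had 8291 to 13420 normalized counts in the Hypothermia rats and 4616 to 7485 in the Normal rats. The 13 RNA decay genes had a median log2 fold change of -0.30, with 3 up-regulated (23.1%) and 7 down-regulated (53.8%). Down-regulated shares were 20.5% over the table and 34.6% among its genes over the median length, and the median length of the decay genes was 3039 bases. The 3 were the exonucleases Dis3l (0.84 ± 0.14, adjusted p = 0.00552) and Dis3l2 (0.54 ± 0.12, adjusted p = 0.0132) and the nonsense-mediated decay factor Upf3a (0.32 ± 0.094, adjusted p = 0.0416). The 7 were the deadenylase genes Cnot6 (-0.44 ± 0.078, adjusted p = 0.00589) and Cnot6l, the deadenylase-recruiting Tob2 (-0.58 ± 0.11, adjusted p = 0.00745) and Btg2, Smg6 and Smg8 of nonsense-mediated decay, and the exosome nuclease Dis3 (-0.32 ± 0.086, adjusted p = 0.0296). Dis3 had 264.9 to 341.8 against 347.8 to 404.9, below the untreated rats, while the exosome ring subunits Exosc4 and Exosc5 were above them. Of 2 listed snRNP assembly genes, Strap was up-regulated (0.60 ± 0.15, adjusted p = 0.0189) and Prmt5 was at 0.26 ± 0.093 (adjusted p = 0.0887). No gene of RNA methylation and editing was listed.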

How the data were processed

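RNA-seq of 10 rat lens capsule samples was analysed. Per the labels and the study's methods, the authors prepared libraries with NEBNext Ultra from RNA with a RIN of at least 5.8, sequenced them on a NovaSeq and aligned reads to Rnor_6.0. Their processing notes name HISAT2 2.0.5, featureCounts 1.5.0-p3 and DESeq2 1.16.1. The annotation release is not given in the sources used here. The deposited counts are whole reads per gene, without normalization. The deposited FPKM values are the authors' own and were, for the 33 genes, proportional to the counts divided by their size factors and by gene length. The deposited group means are a signal on the count scale, averaged by the authors over a group after scaling. The authors' deposited log2 fold changes and p-values were not used.

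Solving their group means for the scaling of each rat gave back the authors' size factors (largest relative error 9.66e-10). Counts were fitted over the whole table with edgeR 4.0.16 in R 4.3.3 (filterByExpr, quasi-likelihood, robust = TRUE, group as the only factor). p-values were adjusted by Benjamini-Hochberg as if 17000 genes had been tested, about the number expressed in the study, since the table is a list chosen by outcome. Of its rows, 124 had no name. SE is the log2 fold change over the root of F. Named genes were all with a log2 fold change above 1 in either direction, the 2 highest and 2 lowest of each role averaging 50 or more normalized counts, and Cirbp, Rbm3 and Polr2a. Snrpd2, Lsm3, Lsm4, Lsm7, Lsm12, Rbm42, Polr2k and Polr2i, outside that rule, were added after their values were seen for completeness. Of the 33 genes, 1 is counted but not reported here. The genes and lists were chosen with earlier results of these data known. The scripts were tested on simulated data in which most genes did not differ. That test adjusted over the tested genes, so it does not check the calls made here on a list chosen by outcome. Alternatives were 4 other scalings, TMM with adjustment over tested genes, DESeq2 1.42.0, no filter, robust = FALSE, a replicate block, each rat left out, adjustment over the tested genes and an adjusted p under 0.01. Figures were drawn with matplotlib 3.10.9.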

Additional observations from a re-analysis of the deposited data

Results flagged for a closer look

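In 66 groups of 5 rats (33 genes in each group), the highest or lowest rat was checked for standing apart from the others by Dixon's ratio at the 95% level, which chance passes in about 1 in 20 groups. It did so in 4 groups, all in the Normal Group. Cpsf2 stood at 1010 normalized counts in Normal rat 5, where the nearest other rat had 1125. U2af1 stood at 1281 in Normal rat 2, with the nearest at 1061. Hnrnph3 stood at 229.9 in Normal rat 3, with the nearest at 180.3. Polr2i stood at 105.4 in Normal rat 1, with the nearest, Normal rat 4, at 23.19.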

How the results depend on the processing

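The scaling decided most calls, and the depth behind each rat is known only for the listed genes. Against 17 up-regulated and 5 down-regulated genes, TMM gave 4 (Rbm24, Rbm38, Snrpd2 and Exosc5) and 8, median-of-ratios factors 2 and 8, upper-quartile factors 1 (Rbm38) and 8, and listed-gene totals 0 and 27. Over the table these 4 scalings called 54%, 53.2%, 51.6% and 76.2% of tested genes, against 72.9%. TMM with adjustment over the tested genes gave 10 and 8, and called 68.5% of the table. The median shift over all genes was -0.29, -0.31, -0.32 and -1.23 for the 4 scalings. DESeq2 with the authors' size factors called 22 and 8 (Polr2i included), all but Lsm1, U2af1l4 and Rbm46, and 88.1% of the table. The adjustment over tested genes called 24 and 8, and 2052 and 1169 of all 3222 tested genes. An adjusted p under 0.01 left 7 and 0, and the share of the table at that level is not given here. No filter (17 and 5) and robust = FALSE (16 and 6) moved little, with 72.6% and 73.4% of the table called. Leaving out each rat gave 12 to 18 up-regulated and 0 to 5 down-regulated genes, while 42.4% to 73.7% of the table was called. The lower count was 0 without Hypothermia rat 1 or Normal rat 4 and 1 without Hypothermia rat 3 or 5 or Normal rat 2, 3 or 5. Of the 22 called genes, 12 kept the call in all 10 such fits and none changed sign. The matching share of the table is not given here, so this is no result about the genes as a group. Same-numbered rats of the 2 groups are different animals, and their deviations had correlations of 0.035, -0.17, 0.034, -0.11 and 0.23 and best matches with other numbers in every case. The replicate block called 7 genes up-regulated and 0 down-regulated, and 29.3% of the table.

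TMM added Prpf18, Celf2 and Rbm46 to the 5 down-regulated genes. Signs turned as follows among the reported genes of the 33. Under listed-gene totals Cpsf4 went to -0.72, Ddx1 -0.81, Dhx32 -0.77, Exosc4 -0.93, Exosc5 -0.69, Hnrnph3 -0.75, Lsm1 -0.93, Lsm3 -0.70, Lsm4 -0.68, Lsm7 -0.89, Lsm12 -0.91, Polr2f -0.82, Polr2k -0.87, Polr3d -0.84, Rbm42 -0.97, Snrpd2 -0.61, Snrpd3 -0.96, Snrpe -0.55, U2af1 -0.95 and U2af1l4 -0.95. Under median-of-ratios factors Exosc4 went to -0.018, Lsm1 -0.021, Snrpd3 -0.030, U2af1 -0.031, U2af1l4 -0.024 and Rbm42 -0.042. Under upper-quartile factors they went to -0.027, -0.032, -0.040, -0.040, -0.035 and -0.053 in the same order. Under TMM, with either adjustment, Snrpd3 went to -0.0064, U2af1 to -0.0070, U2af1l4 to -0.00094 and Rbm42 to -0.019. The scaling's own shift produces these changes. For the 45 genes of the other lists the scalings were tried after seeing the data: TMM, median-of-ratios and upper-quartile factors each called 6 up-regulated and 19 down-regulated, against 21 and 14, and turned Ptbp2 and Prmt5 negative, while listed-gene totals called 0 and 41 and made all 45 negative.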
